A study of Mus musculus with 237 samples.

Results

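Levels of 7 keratin genes, Krt17, Krt6a, Krt6b, Krt16, Krt4, Krt13 and Krt23, were described in single cells of mouse embryonic skin. The genes were chosen by name, and all 7 were found among the 55335 genes of the count table through their Ensembl identifiers. Each column of that table is the library of 1 cell, with estimated counts that were rounded and given as CPM, scaled to a column total of 1e6. The embryos were C57BL/6N at E14.5, carried by ICR surrogate mothers, and were either wild type or p63 knockout, the latter made by Cas9 editing of zygotes. The skin of wild-type fetuses was separated with dispase before trypsin, and knockout fetuses went directly into trypsin. Sorted cells were negative for CD45, TER119 and CD140a. Per the study's methods, amplified cDNA was screened by qPCR and kept for its Krt5 (wild type) or Krt8 (knockout) signal. The libraries were not all of this kind, as some had 0 counts of both Krt5 and Krt8. In 86 libraries, Krt8 was below 100 CPM, while Krt1, Krt10 and at least 1 of Krt5 and Krt14 were below 1000 CPM. The authors' labels also include mutant fibroblasts.

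Only 16 of the libraries could be paired with a labelled cell, and all 16 came from wild-type embryo WT01. By the authors' labels, 4 of them were K17 high, 11 basal layer and 1 intermediate layer. The other 221 libraries are named by sequencing run alone, so their genotype, embryo and cell type were not assigned here. Since each label is represented by 1 embryo, no group had replicates and no difference was tested. Values are given per cell or as the sum of the cells of a label with an exact 95% Poisson interval. Such an interval takes in counting error alone, and it is too narrow where copies of 1 molecule were read more than once, since the libraries carry no molecular identifiers. Total counts lay between 6345186 and 8984376 in the K17 high cells and between 7020607 and 9001846 in the basal layer cells, and the intermediate layer cell had 8244067. Over all libraries they ranged from 2701500 to 19197138, with a median of 6938031.

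Keratins are intermediate filament proteins that assemble as pairs of a type I and a type II chain. Krt17 and Krt16 are type I and Krt6a and Krt6b type II chains known from hair follicles and from wounded or stressed epidermis, and Krt17 is also known from embryonic ectoderm and periderm, the flat outer layer of the fetal epidermis. Krt4 (type II) and Krt13 (type I) form the pair of internal stratified epithelia, and Krt23 is a type I keratin of simple and glandular epithelia.

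In the GENCODE vM21 annotation of GRCm38, the type I genes lie on chromosome 11, Krt17 at chr11:100256217-100261029, Krt16 at chr11:100246091-100248902, Krt13 at chr11:100117327-100121566 and Krt23 at chr11:99477974-99493137. The type II genes lie on chromosome 15, Krt6a at chr15:101689910-101694307, Krt6b at chr15:101676023-101680287 and Krt4 at chr15:101918535-101924735. All 7 are on the minus strand. Some of these genes are so alike that reads can fit more than 1 of them, which bears on the low values of Krt6a, Krt6b and Krt16. The coding sequences of Krt6a and Krt6b were identical at 97.8% of aligned bases, and those of Krt16 and Krt14, the type I keratin of basal cells, at 85.5%. The longest identical coding stretches of these pairs are shown, in capitals, with 10 flanking bases on either side. For Krt6a and Krt6b the stretch is 280 bases long in exon 1 of 9, at chr15:101693936-101694215 and chr15:101679911-101680190, and for Krt16 and Krt14 it is 134 bases long in exon 1 of 8, at chr11:100248476-100248609 and chr11:100207017-100207150.
Krt6a: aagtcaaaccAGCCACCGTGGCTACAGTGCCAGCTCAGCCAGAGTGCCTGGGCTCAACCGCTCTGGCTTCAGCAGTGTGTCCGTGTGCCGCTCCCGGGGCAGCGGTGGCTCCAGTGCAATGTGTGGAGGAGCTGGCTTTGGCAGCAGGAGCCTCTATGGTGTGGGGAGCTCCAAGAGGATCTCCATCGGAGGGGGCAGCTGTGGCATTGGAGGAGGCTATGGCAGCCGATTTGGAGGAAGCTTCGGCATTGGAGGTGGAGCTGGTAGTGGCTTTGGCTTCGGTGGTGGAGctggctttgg
Krt6b: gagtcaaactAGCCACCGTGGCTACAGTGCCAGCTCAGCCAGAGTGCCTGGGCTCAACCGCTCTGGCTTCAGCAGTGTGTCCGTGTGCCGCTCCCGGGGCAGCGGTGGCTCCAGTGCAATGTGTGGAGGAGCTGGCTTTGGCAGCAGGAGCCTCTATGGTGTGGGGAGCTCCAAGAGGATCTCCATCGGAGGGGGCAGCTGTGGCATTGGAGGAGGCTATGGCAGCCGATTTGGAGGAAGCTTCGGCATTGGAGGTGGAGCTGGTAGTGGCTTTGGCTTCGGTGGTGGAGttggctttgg
Krt16: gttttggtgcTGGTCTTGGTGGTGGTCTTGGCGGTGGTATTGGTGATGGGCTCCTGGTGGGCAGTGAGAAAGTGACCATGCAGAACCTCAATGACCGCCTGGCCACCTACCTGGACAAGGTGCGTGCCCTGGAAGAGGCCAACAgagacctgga
Krt14: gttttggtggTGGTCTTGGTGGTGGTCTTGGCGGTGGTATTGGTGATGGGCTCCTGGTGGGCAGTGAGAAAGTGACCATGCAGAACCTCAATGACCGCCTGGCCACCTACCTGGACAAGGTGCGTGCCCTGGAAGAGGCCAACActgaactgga

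Of all windows of 100 bases along the transcript, 47.5% in Krt6a, 30.6% in Krt6b and 24.3% in Krt16 occurred without a mismatch in a transcript of another gene. The partners of Krt6a were Krt6b (29.5% of its windows), the antisense gene Gm49428 (13.5%), Gm5478 (4.22%) and Krt5 (2.29%), the type II keratin of basal cells, and those of Krt16 were the pseudogene Gm11597 (21.1%) and Krt14 (3.14%). Krt17, Krt4, Krt13 and Krt23 had 0% of such windows. Values with a fraction made up 86.8% of the nonzero values of Krt6a, 71.9% of Krt6b, 78.4% of Krt16, 53.3% of Krt13 and 40.5% of Krt17, but 1 of 48 for Krt4 and 0 of 2 for Krt23. How the fractions arose was not tested, and Krt13 and Krt17 carried them without any shared window of this length. Levels of Krt6a, Krt6b and Krt16 are uncertain where a close relative is abundant, because of their shared windows.

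In the paired cells, Krt17 stood alone among the 7 keratins at a high level. Its CPM was 1715, 3902, 3155 and 2819 in K17 high cells 1 to 4, and 4.37 to 613 in the basal layer cells (median 45.7). The intermediate layer cell had 41.5. Every K17 high cell lay above every basal layer cell, which is a description only, because the authors gave this label from Krt17 itself. Summed over cells, Krt17 reached 2923 CPM (interval 2904 to 2943) in K17 high and 96.1 CPM (94.1 to 98.2) in basal layer. Basal layer cell 2 carried the 613 CPM and held most of the basal layer's Krt17, and the next highest basal layer cell had 105.5 CPM.

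Krt6a, the partner chain known for Krt17 in stressed epidermis, was almost absent from the same cells. It had 0.292, 0.142, 0.668 and 0.158 CPM in K17 high cells 1 to 4, and between 0.127 and 4.14 CPM in the basal layer cells. The summed level was 0.342 CPM (0.164 to 0.630) in K17 high and 1.32 CPM (1.09 to 1.58) in basal layer. Krt6b was lower still, with at most 0.334 CPM in a K17 high and 0.775 CPM in a basal layer cell. Neither gene reached 10 CPM in any paired cell.

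Krt16 was present at a low level in both labels. K17 high cells 1 to 4 had 7.73, 2.42, 15.1 and 0.946 CPM, and the basal layer cells had 7.63 to 53.8 CPM with a median of 17.5. The ranges of the labels overlapped. The summed level was lower in K17 high, at 7.26 CPM (6.32 to 8.31), than in basal layer, at 21.4 CPM (20.4 to 22.4). The sum for K17 high depended on cell 3, as the log2 ratio to basal layer was -1.44 with all cells and -2.23 without it. Krt14 was lower in K17 high as well, at 2924 against 5734 CPM, and its part in the Krt16 difference was not tested.

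Krt4 was counted in a single paired cell, the intermediate layer cell, at 42.2 CPM (37.9 to 46.9), beside Krt1 at 13864 and Krt10 at 15380 CPM, the keratins of suprabasal layers. In the K17 high and the basal layer cells Krt4 had 0 counts, which allows up to 0.103 CPM in the summed K17 high cells by the limit of 3 counts. After rounding, Krt13 had 2 counts in basal layer cell 1 and 0 in the other 15 cells, and Krt23 had 0 in all 16. Before rounding, 3 paired cells had a nonzero value of Krt13. Per kilobase of exon, Krt17 had a median of 1926 CPM in the K17 high cells, against 3.24 for Krt16, 0.0929 for Krt6a and 0.0326 for Krt6b. On the same scale Krt14 had 1619 and Krt5 712, so Krt17 was in the range of the main basal keratins and the other listed keratins were far below it.

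**Figure D1:**
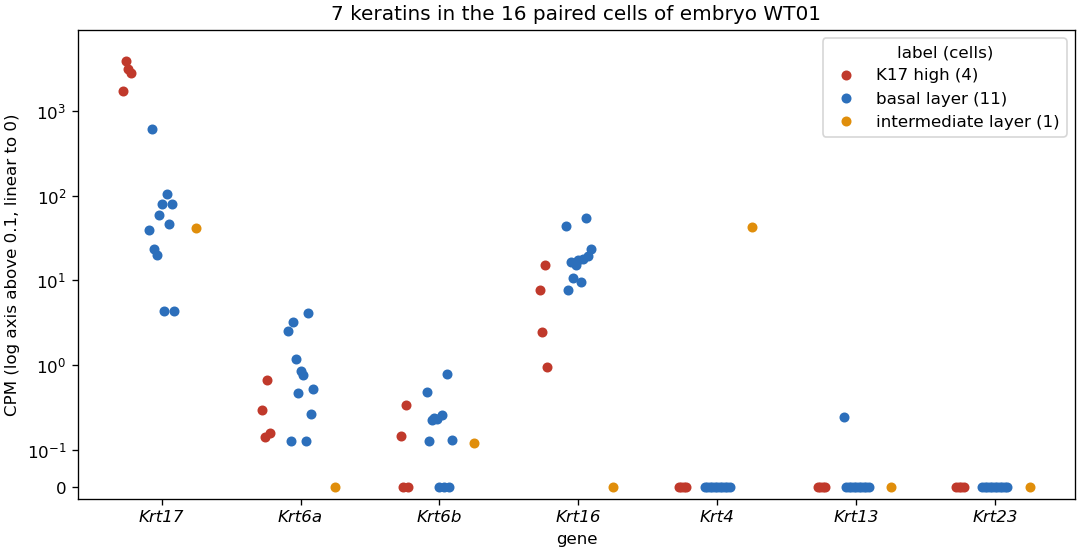
CPM of the 7 keratins (vertical axis, logarithmic above 0.1 and linear down to 0) in the 16 paired cells of embryo WT01, each point a cell and colours the authors' label. Krt17 lies at 1715 to 3902 CPM in the K17 high cells, while Krt6a and Krt6b stay under 5 CPM in every cell and Krt4 appears in the intermediate layer cell alone.

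Of the 7 keratins, 2 (Krt17 and Krt16) passed the filter of 10 CPM in 1 or more of the 15 K17 high and basal layer cells. Krt17 was the 1 keratin at least 4-fold higher in K17 high, where 6.77% of all 14023 genes that passed were, and Krt17 was chosen for that contrast by its label. None of the keratins was at least 4-fold lower, against 10% of all genes. Krt17 was also 1 of 38 genes (0.271%) with every K17 high cell above every basal layer cell, and no keratin was among the 0.0713% of genes with every K17 high cell below.

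The K17 high cells were checked against markers of periderm, the layer to which the study assigned them. Of 15 genes of periderm and simple epithelium, 14 passed the filter, 4 were at least 4-fold higher in K17 high (Krt8, Grhl3, Tgfb3 and Ovol1) and 4 at least 4-fold lower (Krt19, Krt7, Cldn6 and Gabrp). Over the list, 10 of the 14 ratios were above 0 on the log2 scale, with a median of 0.61 against -0.09 over all genes. Without K17 high cell 3, 7 of the 14 were above 0 and the median was 0.01. The difference fell below 4-fold without a single cell for Grhl3 (K17 high cell 3), Tgfb3 (K17 high cell 2) and Cldn6 (basal layer cell 8). Krt19 and Gabrp had 0 counts in all 4 cells, and Cldn6 had at most 0.875 CPM. Krt8, a keratin of simple epithelia, reached 72.7 CPM and Grhl3, a transcription factor of the epidermal barrier, 0.292 to 221 CPM. Basal keratinocyte genes were present, with Krt5 at 1041 to 2255, Krt14 at 1508 to 4059, Krt15 at 175 to 3097 and Trp63 at 337 to 1176 CPM. Of 7 basal genes, 5 were lower in K17 high, with a median log2 ratio of -0.84, and 0 differed 4-fold, although Krt15, at -1.86, fell to -2.80 without K17 high cell 1. The periderm genes thus moved in both directions, and several rested on 1 cell. Krt19 and Gabrp, absent from K17 high, and Cldn6, at most 0.875 CPM there, could pass the filter only through basal layer. Ovol1, at most 0.254 CPM in basal layer, could pass it only through K17 high. No conclusion is drawn from the calls of these genes. The markers do not settle that name, and the cells are called K17 high here.

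Wound genes were low too. Of 14 wound and stress genes, 2 passed the filter, Hbegf and Cxcl1. Hbegf reached 23.6 CPM in K17 high cell 3 and 21.1 CPM in basal layer cell 7, with a log2 ratio of 0.92. Cxcl1 had 0 counts in K17 high and 52.6 CPM in basal layer cell 2, so it could pass only through basal layer. Sprr1a, S100a8, S100a9, Il1b and Lcn2 had 0 counts in every K17 high and basal layer cell. Genes that rise when tissue is dissociated were abundant in both labels when summed. The sum over 10 genes was 1738 CPM in K17 high and 3497 CPM in basal layer. Cells varied, as Egr1 had 1669 CPM in K17 high cell 3 and 3.15 in cell 4, and 3.25 to 2667 CPM in basal layer. Of the 10 genes, 0 were 4-fold higher and 2 (Fosb and Atf3) 4-fold lower in K17 high, with a median log2 ratio of -0.91 over the list. With each cell left out in turn, 1 to 3 of the 10 were 4-fold lower, and the median stayed below 0. Of 7 known regulators of these keratins, none differed 4-fold, and the log2 ratios ran from -1.96 for Nfe2l2 to 1.86 for Stat3. With a cell left out, up to 1 of them passed 4-fold in either direction, Nfe2l2 the furthest, at -5.69 without K17 high cell 1. The hair placode and germ list had 3 of 13 genes 4-fold higher, Sox9, Ptch1 and Gli1, and 3 lower, Dkk4, Bmp2 and Fgf20. Of all genes that passed the filter, 6.77% were 4-fold higher and 10% 4-fold lower. The list depended on basal layer cell 2, without which 5 genes were 4-fold higher, Shh and Edar among them, and 1 was 4-fold lower, Bmp2. Sox9, a transcription factor of the early hair follicle, had 111 to 471 CPM in the K17 high cells and at most 6.94 CPM in the basal layer cells. It could thus pass the filter only through K17 high. Dkk4, with 0 counts in K17 high, and Fgf20, at most 5.6 CPM there, could pass it only through basal layer. No conclusion is drawn from the calls of Sox9, Dkk4 and Fgf20.

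**Figure D2:**
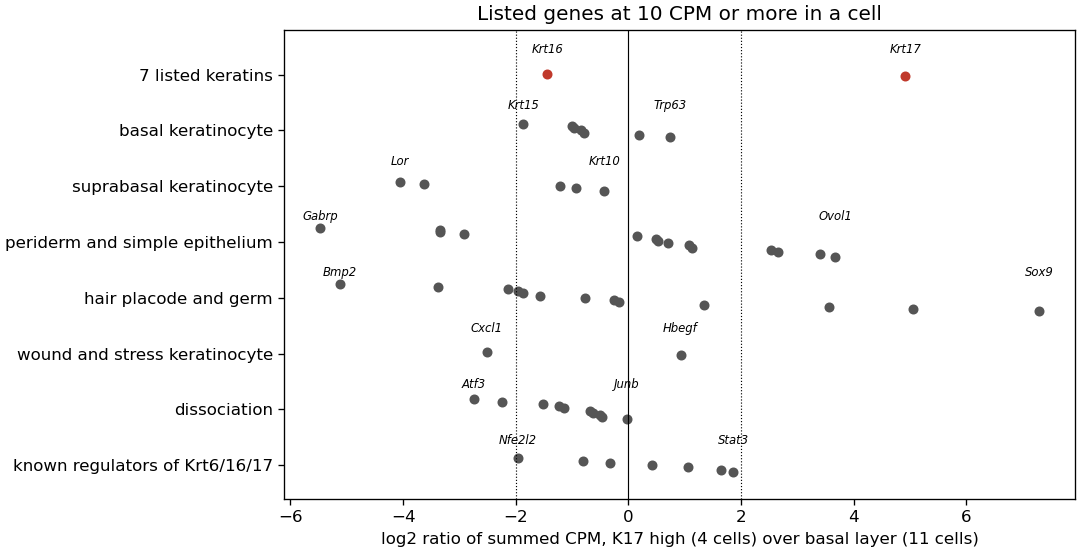
Log2 ratio of the summed CPM of the 4 K17 high cells to that of the 11 basal layer cells (horizontal axis), with a point for each listed gene at 10 CPM or more in 1 or more cells, by gene list, and dotted lines at 4-fold. Krt17 lies at 4.91, Krt16 at -1.44 and Sox9 at 7.29.

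Over the 16 paired and 221 unpaired libraries, Krt17 was counted in 121 and had 0 counts in 116. It reached 1000 CPM in 13 libraries, the 4 paired K17 high cells and 9 unpaired ones. The lowest of the 13 had 1177 CPM and the highest library outside had 931 CPM, so the limit falls within a gradual series, and 48 more libraries had 10 CPM or more. The 13 had a median of 2399 CPM and a highest value of 16431 CPM. Their total counts, 4217181 to 11521248, lay within the range of the others.

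The 13 libraries with Krt17 at 1000 CPM or more did not share 1 keratin pattern. In 10 of them Krt5 and Krt14 both had 1000 CPM or more and Krt8 was below 100 CPM, the 4 paired cells among them. The other 3 were the libraries ranked 1, 10 and 13 by Krt17, which had Krt7 at 1264, 2216 and 4674 CPM, Krt19 at 149, 1627 and 7964 CPM and Cldn6 at 1487, 475 and 764 CPM. Trp63 was 72.8, 55.6 and 0.474 CPM in these. The library ranked 2 had Krt1 at 1437 and Krt10 at 5663 CPM beside its 6297 CPM of Krt17. Krt5 was the 1 keratin other than Krt17 at 100 CPM or more in all 13.

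**Figure D3:**
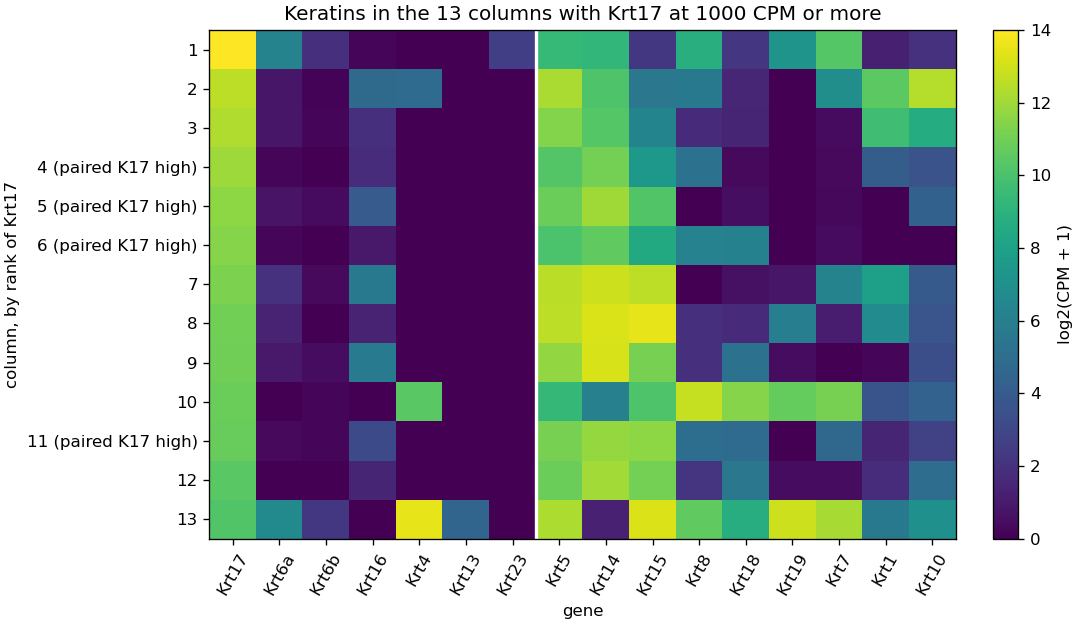
Heat map of log2(CPM + 1) in the 13 libraries with Krt17 at 1000 CPM or more (rows, by rank of Krt17, paired cells named), with the 7 listed keratins left of the white line and 9 other keratins right of it. Krt6a is bright in rows 1 and 13 and Krt4 in rows 10 and 13, where Krt7 and Krt8 are bright too.

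Among these 13 libraries, 6 had none of the other 6 keratins at 10 CPM. Krt16 reached 10 CPM in 4 (30.8%, exact binomial interval 9.09% to 61.4%), Krt4 in 3 (23.1%, 5.04% to 53.8%), Krt6a in 2 (15.4%, 1.92% to 45.4%) and Krt13 in 1, while Krt6b and Krt23 reached it in 0. The binomial intervals take libraries as independent, although 4 of the 13 came from 1 embryo and the embryos of the others were not assigned. These intervals describe the size of the counts and compare nothing. Without Krt17 at 1000 CPM, in 224 libraries, Krt16 reached it in 36 (16.1%, 11.5% to 21.5%), Krt4 in 11 (4.91%, 2.48% to 8.62%), Krt6a in 5 (2.23%, 0.729% to 5.13%), Krt6b in 2, Krt23 in 1 and Krt13 in 0. At least 1 of the 6 was thus present in 7 of 13 libraries (53.8%) with Krt17 and in 49 of 224 (21.9%) without it. A keratin other than Krt16 was present in 15 of the 49, in some of them beside Krt16. Of the 3 keratins present in 5 or more libraries, Krt6a and Krt4 had a share at least 4 times as high with Krt17 as without it, which holds for 2.54% of 16073 genes. Both shares rest on 2 and 3 libraries, and neither was 4 times as high once libraries with Col1a1 or Col3a1 at 100 CPM or more were left out, at 3.43 times for Krt6a and 2.45 times for Krt4. That choice left 12 of the 13 and 103 of the 224 libraries, so many of the 224 carried collagen. The share with at least 1 of the 6 was not computed on those left. Krt16, in most of the libraries with any of the 6, then had like shares with Krt17 (33.3%) and without it (34.95%). No tie of these keratins to Krt17 can be read from the shares.

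**Figure D4:**
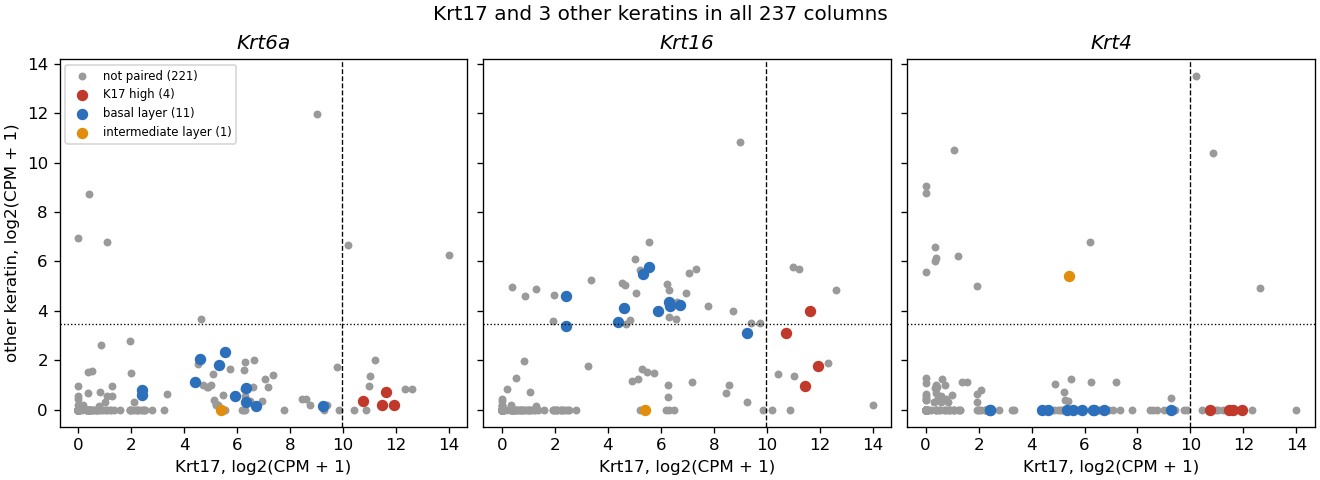
Krt17 (horizontal axis) against Krt6a, Krt16 and Krt4 (vertical axes), all as log2(CPM + 1), in all 16 paired and 221 unpaired libraries, with the paired cells coloured by label, a dashed line at 1000 CPM of Krt17 and a dotted line at 10 CPM of the other keratin. The highest Krt6a and Krt16 values lie left of the dashed line and the highest Krt4 value lies right of it.

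Krt4 reached 10 CPM in 14 libraries. Of these, 10 had Krt8 at 100 CPM or more, 3 had Krt1 or Krt10 at 1000 CPM or more, and 1 had neither but carried the melanocyte genes Kit at 3087, Pmel at 2490, Dct at 2218, Mitf at 753 and Sox10 at 616 CPM. The highest, 11649 CPM, stood beside Krt17 at 1177, Krt13 at 22.8, Krt6a at 99.4 and Krt19 at 7964 CPM, and it was the 1 library of the series with Krt13 above 10 CPM. The next, 1458 CPM, had Krt17 at 1.12 CPM, and the library after it, 1354 CPM, had Krt17 at 1866 CPM. Krt4 was thus found both with and without Krt17, and mostly where simple epithelial keratins were counted. Krt8 at 100 CPM or more occurred in 92 of all libraries. Without the libraries that had Col1a1 or Col3a1 at 100 CPM or more, a choice made after the values were seen, Krt4 reached 10 CPM in 7 rather than 11 libraries below the Krt17 limit.

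Krt6a reached 10 CPM in 7 libraries, 6 of them with Krt8 at 100 CPM or more. The highest by far had 4009 CPM, with Krt6b at 234, Krt16 at 1837 and Krt17 at 514 CPM, below the limit. That library also held Krt15 at 52652, Krt14 at 25108, Krt7 at 4820 and Sprr1a at 2536 CPM, and Trp63 at 1.74 CPM. The antisense gene Gm49428, which overlaps Krt6a, had 1033 CPM there and reached 10 CPM in no other library. Since strand use in counting is not given in the sources used here, reads from the part where the 2 genes overlap cannot be told apart. Krt6a, Krt16 and Krt17, keratins known from stress, were thus found together at 100 CPM or more in this library alone. Other libraries had Krt6a at 420, 123 and 110 CPM with Krt17 at 0.328, 0 and 1.12 CPM, and the library of highest Krt17 had Krt6a at 76.6 CPM. Krt6b was 3.58% to 6.70% of Krt6a in all 7, and how much of it came from shared reads was not tested.

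Krt16 behaved differently from Krt6a. Each of the 40 libraries with Krt16 at 10 CPM or more had Krt5 and Krt14 at 1000 CPM or more, and 33 of them (82.5%) had Krt17 at 10 CPM or more. Krt17 reached that level in a like share, 46 of 57 (80.7%), of all libraries with Krt5 and Krt14 so high. It was 100 CPM or more in 2 libraries, that of highest Krt6a with 1837 CPM and another with 108 CPM and Krt17 at 45.4 CPM. Its ratio to Krt14 had a median of 0.347% over 58 libraries with Krt14 at 1000 CPM or more and ranged from 0.0154% to 7.31%, with 3 libraries at 1% or more. The ratio was not fixed. Among 51 libraries with Krt14 at 4000 CPM or more, 38 had Krt16 at 10 CPM or more and 12 had it below 3 CPM. The limits of 4000 and 3 CPM were not planned. With Krt14 at 1000 CPM or more, 40 of 58 libraries had Krt16 at 10 CPM or more, 15 below 3 CPM and 3 in between. The share of Krt16 counts that came from Krt14 or Gm11597 reads was not tested.

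**Figure D5:**
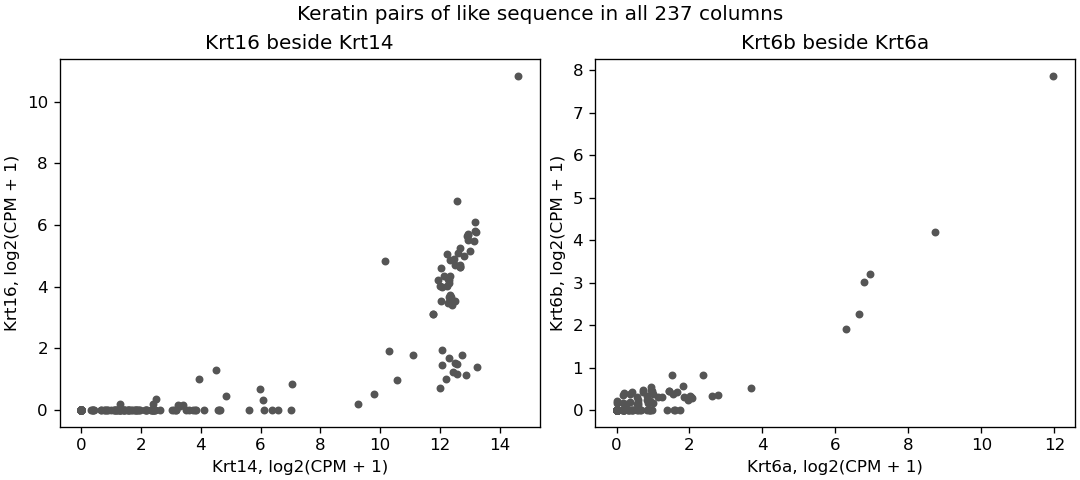
Krt16 against Krt14 (left) and Krt6b against Krt6a (right), as log2(CPM + 1), with a point for each of all libraries, paired or not. With Krt14 at 4000 CPM or more, Krt16 was below 3 CPM in 12 libraries, at 10 CPM or more in 38 and in between in 1. Krt6b follows Krt6a with a Pearson r of 0.92.

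Krt13 and Krt23 were rare. Krt13 was counted in 8 libraries after rounding, where 15 had a nonzero value before it. Its second highest value was 2.54 CPM, in the library of highest Krt6a. Krt23 was counted in 2 libraries, at 17.2 CPM beside Krt1 at 6013, Krt10 at 7026, Krt4 at 31.6 and Sprr1b at 568 CPM, and at 4.94 CPM in the library of highest Krt17. Promoters of Krt13 and Krt23 were found in the RefSeq table of GRCm38.p6, 2 of the 7 keratins. On either strand, both Krt13 promoters held the AP-1 motif TGANTCA, present in 7.81% of all promoters of 300 bases, and the Krt23 promoter did not. The letters TATAAA (13.6% of all), GCCNNNGGC of AP-2 (16.6%) and AGATAA of GATA (11.2%) were in none of these promoters.

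Over the whole family, 31 of 54 keratin genes reached 10 CPM in 1 or more libraries, and 21 did so in a library with Krt17 at 1000 CPM or more. At 100 CPM in 10 or more of the 13 libraries were Krt5 (13), Krt14 (11) and Krt15 (10), beside Krt17. These 3 are keratins of the basal layer, and they were also common elsewhere, as Krt5 reached 100 CPM in 80, Krt14 in 62 and Krt15 in 106 of all libraries.

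Likeness to Krt17 was described by the Pearson r of log2(CPM + 1), which mixes cell types and depth. Over all libraries the highest values were those of Krt14 (0.74), Krt5 (0.73), Trim29 (0.71), Lama3 (0.66), Serpinb5 (0.66), Col17a1 (0.62), Perp (0.61), Lgals7 (0.61), Mpped1 (0.61) and Car12 (0.60). Over the 16 paired cells of 1 embryo, Krt14 and Krt5 had r of -0.10 and -0.59, and the highest were Bnc2 (0.90), Gm16159 (0.88), Stxbp6 (0.86), Fgfr1 (0.86), Ncam1 (0.85), Ldlrad3 (0.85), Frem1 (0.85), Ifitm1 (0.85), Fgd5 (0.84) and A830012C17Rik (0.83). Ncam1, a cell adhesion molecule, had 66.2 to 525 CPM in the K17 high cells and at most 1.62 CPM in the basal layer cells. Since Krt17 gave the label, a high r over these cells selects for such a difference, which is a description only. Among the 7 keratins, r with Krt17 was 0.59 for Krt16, 0.33 for Krt6a, 0.22 for Krt6b, 0.20 for Krt13, 0.12 for Krt4 and 0.11 for Krt23. Krt6a and Krt6b were closest to each other, with r of 0.92. Outside the 7 keratins, among genes at 10 CPM or more in 5 or more libraries, the nearest were Sprr1a for Krt6a (0.52), Krt14 for Krt16 (0.85), Mall for Krt4 (0.50), Gm37320 for Krt13 (0.55) and Sprr1b for Krt23 (0.69), and those of Krt13 and Krt23 rest on few libraries.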

How the data were processed

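The deposited values are estimated counts that the authors made without normalization, from SMART-Seq HT libraries without molecular identifiers. Per the study's methods, reads were aligned to mm10 with HISAT2 and counted with featureCounts on Ensembl release 97, and the submitters' processing notes also name Trimmomatic. GENCODE vM21 was used here for transcripts. Settings for strand and for reads with several alignments are not given in the sources used here, and 23.2% of nonzero values carry a fraction. Counts were rounded here. Columns were paired with cells by the study's supplementary table (16 columns). The other 221 columns were used only as unlabelled libraries, for levels, counts, shares, ratios, ranges, medians and the correlations over all libraries. No columns were identical. Symbols matched 55154 of 55335 identifiers. The log2 ratio used a pseudocount of 1 CPM and genes at 10 CPM or more in 1 or more cells. Likeness used genes at 10 CPM or more in 5 or more libraries. Named genes are the 7 keratins, the marker lists, abundant keratins and the genes of highest likeness. A gene of the periderm list is not reported here. Members and lists were chosen with earlier results of these data known. Results were also computed with unrounded counts, a mean over cells, totals without the 3 largest genes, another pseudocount, thinning, leaving out each cell, other limits and Spearman rho. Leaving out columns with collagen, leaving out each cell for the listed genes, and the ratio of shares under other limits, were chosen after the data were seen. The computation was tested on simulated data. Python 3.11.15, numpy 2.4.6, pandas 2.3.3 and scipy 1.17.1 were used.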

Additional observations from a re-analysis of the deposited data

How the results depend on the processing

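All 16 labelled cells came from 1 embryo, so no difference between labels could be tested. No embryo or genotype was assigned here to the other 221 libraries. No paired analysis was made, because in the sources used here cells of only 1 embryo were matched with columns. Counts without molecular identifiers, and any reads that fit more than 1 gene, add error that the intervals do not cover. The log2 ratio of Krt17 was 4.88 from the mean of the cells and 4.87 after thinning to 5000000 counts. Leaving out each cell in turn gave 4.75 to 5.98 for Krt17, the highest without basal layer cell 2, and -2.23 to -1.16 for Krt16, past 4-fold without K17 high cell 3. Of the listed genes, Grhl3, Tgfb3, Cldn6, Dkk4, Fgf20, Cxcl1, Fosb, Atf3 and Atoh1 were no longer 4-fold apart without a certain cell, and Krt15, Krt1, Krt18, Shh, Lhx2, Edar, Wnt10a, Fos, Egr1, Ier2, Nfe2l2, Stat3 and Gli2 were so only without a certain cell. Leaving out cells gave 39 to 106 genes with every K17 high cell above and 11 to 37 with every cell below, as fewer cells make either easier, and 2273 genes were 4-fold lower with a pseudocount of 0.1 CPM. With Krt17 at 500 CPM as the limit, Krt6b was with it in 1 and without it in 1 library, and Krt16 with it in 7. At 2000 CPM, Krt6a was with Krt17 in 1, Krt4 in 1 and Krt13 in 0, and Krt13 without it in 1. With the other keratins counted from 1 CPM, the libraries with and without Krt17 were 4 and 25 for Krt6a, 2 and 4 for Krt6b, and 9 with it for Krt16, 20 without it for Krt4, 1 without it for Krt13 and 1 with it for Krt23. From 100 CPM they were 0 with it for Krt6a, 1 without it for Krt6b, 0 and 2 for Krt16, 4 without it for Krt4, 0 with it for Krt13 and 0 without it for Krt23. The share with Krt17 over that without it, 6.89 for Krt6a, 4.70 for Krt4 and 1.91 for Krt16, was 8.61, 3.13 and 2.43 at 500 CPM, 4.22, 1.95 and 2.81 at 2000 CPM, 2.76, 2.58 and 3.16 from 1 CPM, 0, 8.62 and 0 from 100 CPM, and 3.43, 2.45 and 0.954 without libraries with collagen. Krt4 without Krt17 fell to 7 libraries when those with Col1a1 or Col3a1 were left out. By Spearman rho, 6 of the 10 genes most like Krt17 were shared over all libraries and 4 of 10 over the paired cells. Apart from counts that follow from their limits, the cause of these changes was not tested.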

Other observations

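Lists of other cell types were low in the paired cells, with exceptions. Of the fibroblast genes, 4 of 8 passed the filter of 10 CPM, 2 were at least 4-fold higher in K17 high (Col1a2 and Vim) and 1 lower (Col3a1). Vim had 33.1 to 284 CPM in the K17 high cells and at most 82.8 CPM in the basal layer cells, Col1a1 had 0 counts in the K17 high cells, and Dcn was the most abundant gene of the list at 384 and 532 CPM. Pdgfra, whose protein CD140a was sorted against, had 0 counts in both labels. Of the Merkel genes, 1 of 3 passed, Atoh1, at 35.6 CPM in K17 high cell 4 and 0 in the other 3, and Krt20 had 0 counts. Of the melanocyte genes 1 of 5 passed and did not differ 4-fold. The endothelial, immune, neural and muscle lists had 0 genes that passed. Of 9 suprabasal genes 5 passed, and Krtdap and Lor were at least 4-fold lower in K17 high. In the K17 high cells, Lor and Col3a1 had 0 counts and Krtdap at most 4.375 CPM, so they passed through basal layer alone. Atoh1, at most 0.237 CPM in the basal layer cells, passed through K17 high alone. Passing through 1 label alone fixes the direction of a call, so no conclusion is drawn from these calls. Of all genes that passed the filter, 6.77% were 4-fold higher and 10% 4-fold lower.

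Basal layer cell 2, with Krt17 at 613 CPM, was the 1 basal layer cell with any Shh (253 CPM). It also had Bmp2 at 899 CPM, the highest of the basal layer cells, Krt5 at 491 CPM, the lowest, and Sox9 at 0. The K17 high cells had Sox9 at 111 to 471, Ptch1 at 13.1 to 341 and Gli1 at 8.31 to 90.4 CPM, and Shh at 31.7 CPM in cell 4 and at most 0.292 CPM in the other 3. Ptch1 and Gli1 reached 24.97 and 24.24 CPM in basal layer cell 1, above K17 high cell 1, so the labels overlapped in both.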
